A study of Homo sapiens with 18 samples.

Results

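The 10 genes described here encode proteins of the contractile apparatus and of its anchorage to the membrane. They are the actin ACTA2, the actin-binding proteins TAGLN, CNN1, CNN3 and CALD1, the tropomyosins TPM1 and TPM2, the myosin light chain MYL9, and the adhesion-linked proteins ACTN1 and VCL. Each was taken by its exact symbol from the deposited expression table, which holds 19849 genes, and all 10 were found, each with 1 probe set.

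In a contractile cell, myosin pulls on actin filaments, and phosphorylation of the regulatory myosin light chain switches this on. Tropomyosin, caldesmon and the calponins lie along the filament and tune its access to myosin, whereas alpha-actinin and vinculin tie filaments to integrin and cadherin adhesions. Many genes of this kind are driven by serum response factor (SRF), which binds a motif named the CArG box and works with the cofactors myocardin and the myocardin-related factors (MKL1 and MKL2 on the array). They are named for smooth muscle, yet fibroblasts and epithelial cells exposed to TGFβ also make several of them, and ACTA2 is the usual marker of a myofibroblast.

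The samples were parental and mesenchymal cells of A549, HCC827 and NCI-H358, all established human lung cancer cell lines, with 3 arrays for each of the 6 groups and 18 arrays in all. All cells were grown in RPMI1640 with serum and glutamine. The mesenchymal cells, labelled EMT, had been cultured in 2 ng/ml TGFβ for 3 weeks per the labels (for A549 2 to 3 weeks and for the other lines 3 to 5 weeks per the general methods) and were moved to medium free of it on the day before lysis, and the parental cells were the untreated lines. Each line stands for 1 tumour, so a difference between lines is a difference between 3 individual cell populations, and where exposure times also differed the line and the time cannot be told apart. The labels do not say how the arrays of a group were made, and the study describes its array replicates as separate biological samples made at one time, so the p-values measure the spread within 1 such experiment. The RNA is that of whole cultures, in which a change in the share of cells and a change in RNA per cell cannot be told apart. Levels were read on Affymetrix U133 Plus 2.0 arrays that the authors normalized by RMA, so every level below is on a log2 scale and a difference of 1 is a doubling. Array medians ran from 6.31 to 6.47, and the standard deviation of the differences between arrays of 1 group, over all genes, was 0.163 to 0.282. Arrays have no read depth, and 3 arrays per group set the precision.

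Mesenchymal cells expressed most of these genes at higher levels than their parental cells. At an adjusted p below 0.05 (limma, Benjamini-Hochberg over all 19849 genes, called past the test below), 9 of the 10 were higher in mesenchymal A549 cells, against 16.6% of all genes. In HCC827 cells 9 were higher, against 20.8% of all genes, and in NCI-H358 cells 8 were higher, against 21.5%. The 8 genes higher in all 3 lines were TAGLN, MYL9, CNN3, TPM1, TPM2, CALD1, ACTN1 and VCL, while 4.31% of all genes were higher in all 3 lines. Not past the test in either direction were CNN1 in A549, ACTA2 in HCC827, and both ACTA2 and CNN1 in NCI-H358. For the 10 genes together, the median log2 fold change was 1.04, 1.38 and 1.28 (A549, HCC827, NCI-H358), and that of all genes -0.02, 0.01 and 0.02. The 10 genes were chosen with earlier results of these data known, so the shares of all genes are a description and no test of the set.

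With the study's stricter cutoffs (over 5-fold, adjusted p below 1e-05), TAGLN alone was higher in all 3 lines. TAGLN and CALD1 passed them in A549, where 1.17% of all genes did so upward. TAGLN and TPM1 passed in HCC827, against 1.32% of all genes, and TAGLN in NCI-H358, against 0.811%. Every mesenchymal array lay above every parental array for 9 of the 10 genes in each line, while 21.0% of all genes did so in A549, 23.8% did in HCC827 and 27.2% did in NCI-H358. An exact permutation test on 3 against 3 arrays cannot give a two-sided p below 0.1, and it gave 0.1 wherever the arrays did not overlap.

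**Figure D1:**
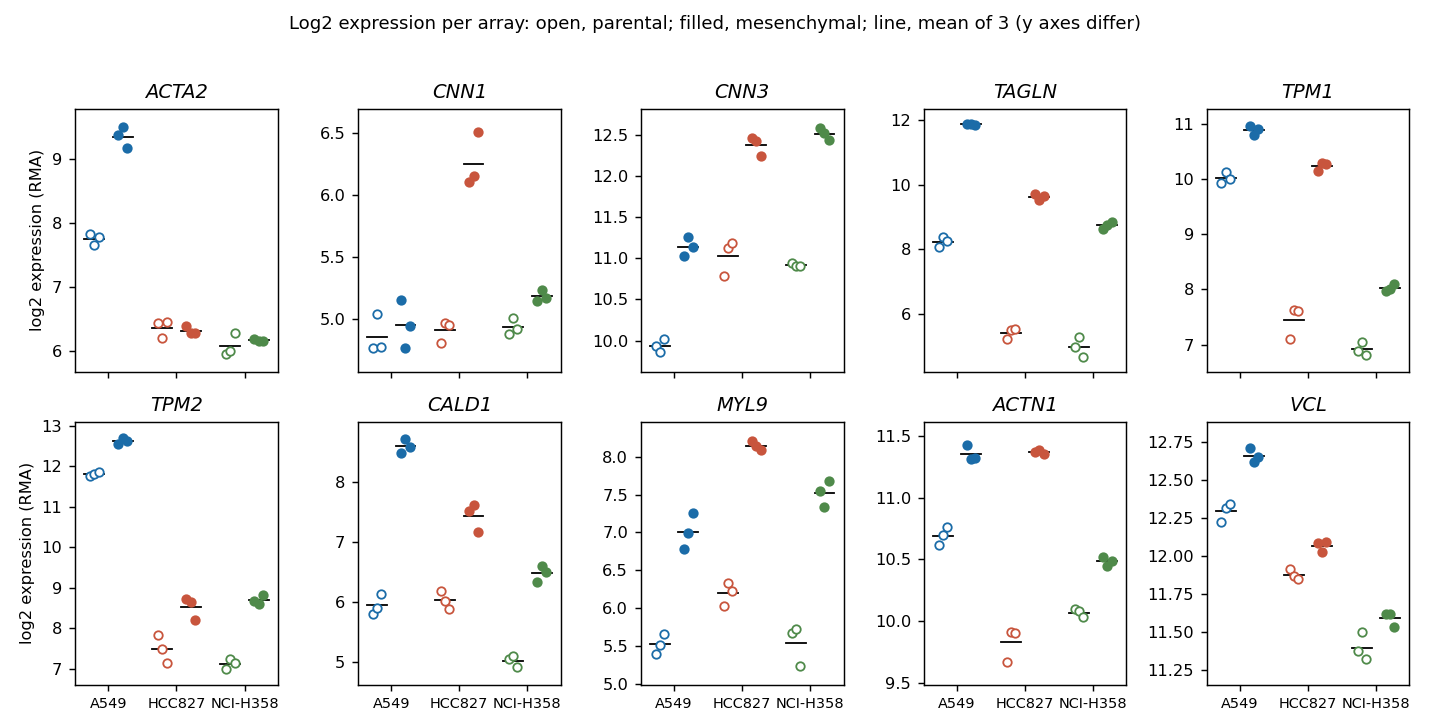
Log2 expression (RMA) of the 10 genes on each of the 18 arrays, by cell line, with parental arrays as open points, mesenchymal arrays as filled points and a line at the mean of 3. The y axes differ between genes, so heights compare groups within a gene only; filled points lie above open points in every line for all but ACTA2 (HCC827 and NCI-H358) and CNN1 (A549).

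ACTA2 (Entrez gene 59, probe set 200974_at, chromosome 10), the smooth muscle alpha-actin that forms the thin filaments of myofibroblasts, rose in A549 only. Its log2 level was 7.83, 7.66 and 7.77 in parental A549 cells and 9.36, 9.50 and 9.17 in mesenchymal A549 cells. All 3 mesenchymal arrays were above the parental ones, and the log2 fold change was 1.59 ± 0.10 (SE, n = 3 per group), 3.01-fold (limma, adjusted p = 6.1e-10). In HCC827 cells the levels were 6.44, 6.21 and 6.46 before and 6.39, 6.29 and 6.29 after TGFβ. In NCI-H358 cells they were 5.96, 6.01 and 6.28 before and 6.19, 6.16 and 6.15 after. In both of these lines the arrays of the groups overlapped. The log2 fold change was -0.05 in HCC827 (95% interval -0.25 to 0.16) and 0.09 in NCI-H358 (95% interval -0.12 to 0.29). A doubling of the signal lay outside both intervals. The ACTA2 means of these 4 groups stood at percentiles 45.3 to 49.2 of all genes. Whether signal at this level follows a doubling of the RNA was not tested. In order of mean level, mesenchymal A549 stood first and parental A549 second, and the 4 groups of HCC827 and NCI-H358 followed with no neighbouring pair past the test. Parental NCI-H358, the lowest group, stood 0.29 below parental HCC827, and this pair did differ (limma, adjusted p = 0.0192).

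The sequence upstream of 1 of the 2 ACTA2 starts is shown because ACTA2 passed the test in A549 alone. Those of CNN1 and TPM1 are shown because their changes in HCC827 differed from those in both other lines. The ACTN1 change did so too, but its 4 starts are not printed. The sequences are from RefSeq on GRCh38.p14, for the 250 bases before an annotated start, and read 5′ to 3′ on the strand of the gene. Capitals mark a CArG box with 1 base off or the TEAD element CATTCC, which reads GGAATG on the other strand. A CArG box is a pair of C, a run of A or T, and a pair of G. Here 1 base off means 1 C or G within the run, with both pairs intact. The stretches are chr10:88952774-88953023 on the minus strand for ACTA2, chr19:11538601-11538850 on the plus strand for CNN1 and chr15:63048239-63048488 on the plus strand for TPM1.
ACTA2: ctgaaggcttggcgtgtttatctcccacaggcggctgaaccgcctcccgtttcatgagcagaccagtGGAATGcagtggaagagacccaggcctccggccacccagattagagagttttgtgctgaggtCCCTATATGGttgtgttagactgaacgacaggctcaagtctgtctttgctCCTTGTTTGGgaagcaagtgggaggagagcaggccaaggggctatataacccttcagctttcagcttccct
CNN1: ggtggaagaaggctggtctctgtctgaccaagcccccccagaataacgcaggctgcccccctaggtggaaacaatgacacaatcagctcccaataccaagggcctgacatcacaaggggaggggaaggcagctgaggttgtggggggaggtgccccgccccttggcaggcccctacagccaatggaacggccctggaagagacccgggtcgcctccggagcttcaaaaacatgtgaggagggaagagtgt
TPM1: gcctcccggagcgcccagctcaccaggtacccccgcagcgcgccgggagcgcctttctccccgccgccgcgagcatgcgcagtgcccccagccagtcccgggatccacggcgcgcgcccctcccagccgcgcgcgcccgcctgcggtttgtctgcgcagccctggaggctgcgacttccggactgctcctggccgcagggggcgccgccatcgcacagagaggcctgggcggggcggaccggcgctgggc

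Of the 10 genes, 8 were in the promoter table, with 17 annotated starts. Windows of 300 bases, 250 before and 50 after the start, were searched on both strands. An exact CArG box was in 1 of the 17 windows and in 1.29% of the 35116 windows of all genes. It began 171 bases before 1 of the 4 ACTN1 starts. A CArG box with 1 base off within its run, a search added after the data were seen, was in 2 of the 17 windows and in 6.94% of all windows. These were ACTA2, with matches beginning 121 and 71 bases before 1 of its 2 starts, the one printed, and CALD1, with a match 26 bases before 1 of its 4 starts. CATTCC was in 6 of the 17 windows, from 5 genes (ACTA2, CNN3, CALD1, ACTN1 and VCL), and in 14% of all windows. None of these matches was in the windows of CNN1 and TPM1, which says only that these letters are not there. TAGLN and MYL9 had no entry.

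TAGLN (Entrez gene 6876, probe set 205547_s_at, chromosome 11), or SM22, an actin-binding protein and an early marker of smooth muscle, had the largest change of the 10 genes in every line. In A549 its log2 level was 8.07, 8.39 and 8.25 in parental and 11.87, 11.89 and 11.86 in mesenchymal cells. In HCC827 it was 5.23, 5.51 and 5.53 in parental and 9.73, 9.52 and 9.64 in mesenchymal cells. In NCI-H358 it was 4.98, 5.29 and 4.68 in parental and 8.63, 8.75 and 8.85 in mesenchymal cells. No array overlapped between the states, and the lowest mesenchymal array of any line stood above the highest parental array of every line. TAGLN rose 12.4-fold in A549 cells, 18.5-fold in HCC827 and 13.6-fold in NCI-H358, on the log2 scale 3.64, 4.21 and 3.76 with a standard error of 0.13 each. By this measure TAGLN was among the 0.443% of genes with the greatest rise in A549, the 0.272% in HCC827 and the 0.176% in NCI-H358. Every neighbouring pair in the order of the 6 group means differed past the test, and the lines kept the order A549, HCC827, NCI-H358 in both states.

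The calponins CNN1 and CNN3, which bind actin and restrain myosin, both rose in HCC827, but in A549 and NCI-H358 only CNN3 passed the test. CNN1 (Entrez gene 1264, probe set 203951_at, chromosome 19), the form typical of differentiated smooth muscle, passed the test in HCC827 only. Its log2 level there was 4.81, 4.96 and 4.95 in parental and 6.10, 6.15 and 6.51 in mesenchymal cells. The log2 fold change was 1.35 ± 0.11 (adjusted p = 2.3e-08). In A549 the levels were 4.76, 5.04 and 4.77 before and 5.15, 4.76 and 4.94 after, overlapping, with a log2 fold change of 0.10 (95% interval -0.14 to 0.33). In NCI-H358 they were 4.88, 5.01 and 4.92 before and 5.14, 5.23 and 5.17 after. The NCI-H358 arrays did not overlap, but the log2 fold change of 0.25 missed the threshold (limma, adjusted p = 0.0918). It passed without the third mesenchymal array of HCC827 (adjusted p = 0.0463) and with a separate fit of NCI-H358 (0.0179). It also passed with arrays centred on the median (0.0450) and with the methods' t-test (0.0226). Apart from mesenchymal HCC827, which stood highest, no neighbouring groups in the order of CNN1 levels differed past the test. All groups but that one were low, with means at percentiles 28.3 to 32.4 of all genes.

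CNN3 (Entrez gene 1266, probe set 201445_at, chromosome 1), the calponin of non-muscle cells, rose in all 3 lines. Its log2 level in A549 was 9.93, 9.86 and 10.02 in parental and 11.03, 11.25 and 11.13 in mesenchymal cells. HCC827 cells had 10.78, 11.12 and 11.18 in parental and 12.46, 12.43 and 12.24 in mesenchymal cells. The NCI-H358 levels were 10.94, 10.90 and 10.91 in parental and 12.58, 12.53 and 12.44 in mesenchymal cells. No arrays overlapped within a line, and the log2 fold changes were 1.20, 1.35 and 1.60, each ± 0.10. In the order of means, mesenchymal A549 stood next to parental HCC827, and this pair did not differ past the test (0.11, adjusted p = 0.330).

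Both tropomyosins, which wind along the actin filament, rose in every line, but by different amounts. For TPM1 (Entrez gene 7168, probe set 206117_at, chromosome 15), the A549 levels were 9.92, 10.12 and 9.99 in parental and 10.96, 10.80 and 10.91 in mesenchymal cells. In HCC827 they were 7.11, 7.63 and 7.61 in parental and 10.14, 10.29 and 10.27 in mesenchymal cells. In NCI-H358 they were 6.89, 7.05 and 6.82 in parental and 7.97, 8.01 and 8.09 in mesenchymal cells. The log2 fold change of 2.79 in HCC827 (6.90-fold) exceeded those of 0.88 in A549 and 1.11 in NCI-H358, each ± 0.11. One parental HCC827 array was low at 7.11, and without it the rise in HCC827 was 2.62. After TGFβ, HCC827 stood near parental A549, a neighbouring pair that did not differ past the test (adjusted p = 0.108), whereas NCI-H358 stayed 1.99 below parental A549.

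TPM2 (Entrez gene 7169, probe set 204083_s_at, chromosome 9) showed a wider gap between A549 and the other lines than between states. In A549 its log2 level was 11.76, 11.81 and 11.85 in parental and 12.55, 12.71 and 12.62 in mesenchymal cells. In HCC827 cells TPM2 stood at 7.82, 7.49 and 7.14 in parental and 8.73, 8.66 and 8.21 in mesenchymal cells. NCI-H358 cells had 6.99, 7.25 and 7.14 in parental and 8.67, 8.60 and 8.82 in mesenchymal cells. The log2 fold changes, each ± 0.15, were 0.82, 1.05 and 1.57 for A549, HCC827 and NCI-H358. Parental A549 cells still stood 3.11 above mesenchymal NCI-H358 cells, the next group down. The mesenchymal cells of HCC827 and NCI-H358 did not differ past the test (adjusted p = 0.388), nor did their parental cells (0.0525).

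CALD1 (Entrez gene 800, probe set 205525_at, chromosome 7), caldesmon, which binds actin, tropomyosin and myosin, rose most in A549. Its log2 level there was 5.81, 5.91 and 6.13 in parental and 8.48, 8.70 and 8.57 in mesenchymal cells. HCC827 gave 6.18, 6.02 and 5.88 in parental and 7.51, 7.62 and 7.17 in mesenchymal cells. In NCI-H358 cells CALD1 stood at 5.05, 5.10 and 4.91 in parental and 6.34, 6.60 and 6.50 in mesenchymal cells. No arrays overlapped within a line, and the log2 fold changes were 2.63 (6.21-fold), 1.41 and 1.46, each ± 0.12. Parental A549 and parental HCC827 did not differ past the test (adjusted p = 0.616), while mesenchymal A549 stood 1.15 above mesenchymal HCC827 (2.1e-07).

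MYL9 (Entrez gene 10398, probe set 201058_s_at, chromosome 20), the regulatory myosin light chain whose phosphorylation starts contraction, rose in all 3 lines. Its log2 level in A549 was 5.39, 5.52 and 5.65 in parental and 6.78, 6.99 and 7.26 in mesenchymal cells. For HCC827 the values were 6.03, 6.33 and 6.22 in parental and 8.21, 8.15 and 8.09 in mesenchymal cells. NCI-H358 gave 5.67, 5.73 and 5.24 in parental and 7.55, 7.34 and 7.68 in mesenchymal cells. No arrays overlapped within a line. The log2 fold changes were 1.49, 1.95 and 1.98, each ± 0.14.

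Of the adhesion-linked genes, ACTN1 (Entrez gene 87, probe set 208637_x_at, chromosome 14), the alpha-actinin that crosslinks actin at adhesions, rose most in HCC827. Its log2 level there was 9.67, 9.91 and 9.90 in parental and 11.37, 11.39 and 11.35 in mesenchymal cells. In A549 it was 10.62, 10.70 and 10.77 in parental and 11.43, 11.31 and 11.33 in mesenchymal cells. For NCI-H358 the values were 10.09, 10.08 and 10.03 in parental and 10.52, 10.45 and 10.48 in mesenchymal cells. HCC827 thus had the lowest parental mean, yet its mesenchymal mean did not differ past the test from that of A549 (difference 0.01, adjusted p = 0.880). The log2 fold changes, each ± 0.07, were 1.54 for HCC827, 0.66 for A549 and 0.42 for NCI-H358. The array maker's suffix on this probe set marks probes that may also match other transcripts, and those of TAGLN, MYL9, TPM2 and VCL are shared by several transcripts of their genes or of similar sequence.

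VCL (Entrez gene 7414, probe set 200931_s_at, chromosome 10), vinculin, which couples integrin and cadherin adhesions to actin, changed least among the 8 genes that rose in every line. In A549 its log2 level was 12.23, 12.32 and 12.34 in parental and 12.71, 12.62 and 12.65 in mesenchymal cells. The HCC827 levels were 11.92, 11.87 and 11.85 in parental and 12.09, 12.03 and 12.10 in mesenchymal cells. The levels in NCI-H358 were 11.38, 11.50 and 11.32 in parental and 11.62, 11.62 and 11.54 in mesenchymal cells. The arrays did not overlap, and the rises of 0.36, 0.19 and 0.19 (each ± 0.06) are 1.29-, 1.14- and 1.14-fold. The call in NCI-H358 (adjusted p = 0.0175) was lost without mesenchymal replicate 1 (0.0619), mesenchymal replicate 2 (0.0611), parental replicate 1 (0.0542) or parental replicate 3 (0.0807), and with a separate fit of that line (0.0648). The call in HCC827 (adjusted p = 0.0155) was lost with a separate fit (0.0674).

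**Figure D2:**
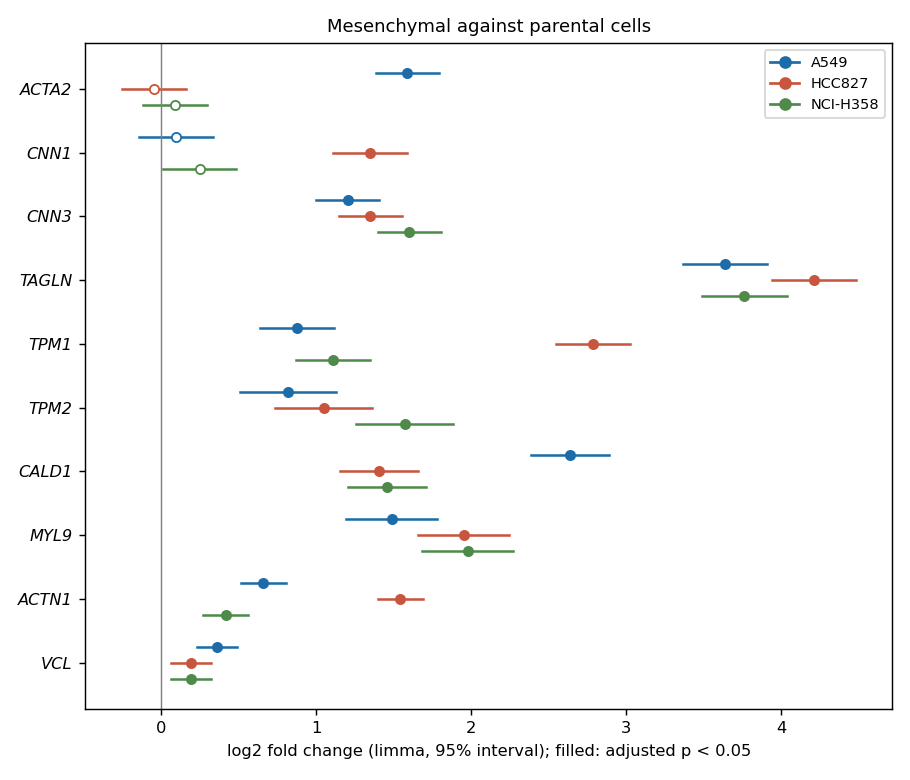
Log2 fold change of mesenchymal against parental cells for the 10 genes in A549, HCC827 and NCI-H358 (limma, points with 95% intervals; filled where the adjusted p was below 0.05). TAGLN lies farthest to the right in every line at 3.64 to 4.21, and the open points are ACTA2 in HCC827 and NCI-H358 and CNN1 in A549 and NCI-H358.

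The size of the change was then compared between lines, as a contrast of log2 fold changes in the same limma fit. It differed past the test between HCC827 and A549 for 6 of the 10 genes, against 42.2% of all genes. Between NCI-H358 and A549 it differed for 4, against 42.8% of all genes, and between NCI-H358 and HCC827 for 3, against 37.9%. The 3 comparisons share cell lines, so these counts are not independent of each other.

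A549 stood apart by ACTA2 and CALD1. The ACTA2 change was lower by 1.64 in HCC827 than in A549 (adjusted p = 4.6e-08), and lower by 1.50 in NCI-H358 (1.3e-07). For CALD1 these differences were 1.23 (1.3e-05) and 1.17 (2.3e-05). Between NCI-H358 and HCC827 neither gene differed past the test: the difference was 0.13 for ACTA2 (95% interval -0.16 to 0.43) and 0.05 for CALD1 (95% interval -0.30 to 0.41).

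HCC827 stood apart by CNN1, TPM1 and ACTN1. The change in HCC827 exceeded that in A549 by 1.25 for CNN1 (adjusted p = 5.8e-06), by 1.91 for TPM1 (4.0e-08) and by 0.88 for ACTN1 (1.2e-06). The NCI-H358 change minus the HCC827 change was -1.10 for CNN1 (3.0e-05), -1.68 for TPM1 (2.7e-07) and -1.12 for ACTN1 (8.6e-08). NCI-H358 did not differ from A549 past the test at these genes, with a difference of 0.15 for CNN1 (95% interval -0.18 to 0.49), 0.23 for TPM1 (-0.11 to 0.57) and -0.24 for ACTN1 (-0.45 to -0.04, adjusted p = 0.0527). The ACTN1 difference passed with array weights (0.0135), an intensity trend (0.0174), dim genes left out (0.0228) or repeated quantile normalization (0.0483), and without parental A549 replicate 3 (0.0384) or parental HCC827 replicate 1 (0.0170).

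The other differences were smaller. The TPM2 change in NCI-H358 exceeded that in A549 by 0.75 (adjusted p = 0.00733). The TAGLN change was 0.57 greater in HCC827 than in A549 (adjusted p = 0.0172), but without parental A549 replicate 2 this was 0.49 and missed the threshold (0.0501). For CNN3 the change in NCI-H358 exceeded that in A549 by 0.40 (adjusted p = 0.0261), and this call was lost without mesenchymal A549 replicate 1 (0.34, 0.0701), parental A549 replicate 3 (0.35, 0.0642) or mesenchymal NCI-H358 replicate 1 (0.36, 0.0612). MYL9 missed the threshold in every pair, with differences from A549 of 0.46 in HCC827 (95% interval 0.05 to 0.88) and 0.49 in NCI-H358 (0.08 to 0.90). For VCL the intervals were -0.36 to 0.01 for both lines against A549 and -0.18 to 0.18 between NCI-H358 and HCC827.

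**Figure D3:**
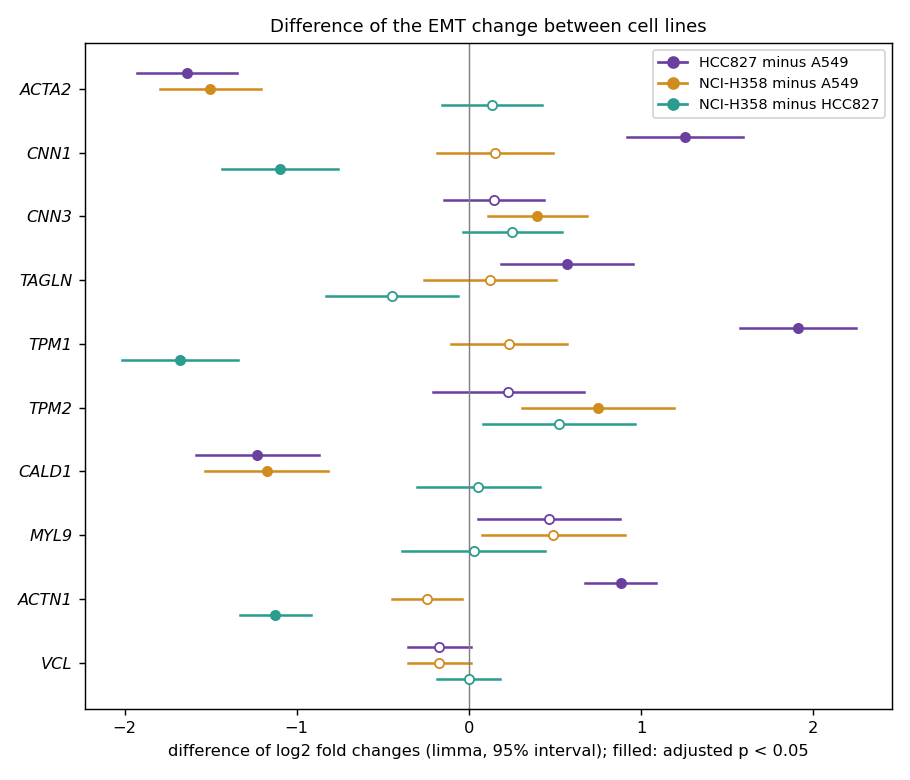
Difference of the log2 fold change between pairs of cell lines for the 10 genes (limma contrasts, points with 95% intervals; filled where the adjusted p was below 0.05). ACTA2 and CALD1 differ in both pairs that hold A549, by -1.64 to -1.17, and CNN1, TPM1 and ACTN1 in both pairs that hold HCC827.

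The lines also differed in the levels themselves. Between HCC827 and A549, 8 of the 10 genes differed past the test in parental cells (57.1% of all genes) and 9 in mesenchymal cells (56.6%). Between NCI-H358 and A549 these counts were 8 (57.9%) and 9 (58.8%), and between NCI-H358 and HCC827 they were 7 (52.6%) and 7 (52.6%). Parental A549 had the highest parental mean of the 3 lines for ACTA2, TAGLN, TPM1, TPM2, ACTN1 and VCL, and the lowest for CNN3, CNN1 and MYL9. The parental means of CNN1 did not differ past the test in any pair of lines, and neither did those of MYL9 in A549 and NCI-H358 (adjusted p = 0.904).

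The pathway around these genes was described by 6 lists with 71 other genes. Past the test, 31 were higher and 11 lower in mesenchymal A549 cells, 35 higher and 12 lower in HCC827, and 26 higher and 14 lower in NCI-H358. Of all genes, 16.6%, 20.8% and 21.5% were higher in the same order, and the share that was lower was not computed. The 71 genes had a median log2 fold change of 0.18, 0.26 and 0.12, smaller than the medians of the 10 genes given above. These lists too were chosen with earlier results of these data known.

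SRF itself rose in every line, by 0.24, 0.57 and 0.48 (A549, HCC827, NCI-H358). Of the 5 genes on its list, 2 were higher in A549, 3 higher and 1 lower in HCC827, and 2 higher and 1 lower in NCI-H358. MYOCD, myocardin, the cofactor that drives smooth muscle genes most strongly, differed between the lines. In A549 its log2 level was 6.79, 6.94 and 6.30 in parental and 10.43, 10.58 and 10.32 in mesenchymal cells. HCC827 arrays read 3.76, 3.47 and 3.91 in parental and 5.33, 4.87 and 6.20 in mesenchymal cells. NCI-H358 arrays read 3.83, 3.60 and 4.13 in parental and 3.78, 3.76 and 4.05 in mesenchymal cells, overlapping. Parental HCC827 and both NCI-H358 groups had means of 3.71 to 3.86, below the array medians of 6.31 to 6.47. At such levels little RNA and none cannot be told apart. The log2 fold change was 3.77 in A549 (adjusted p = 1.7e-09), 1.75 in HCC827 (1.5e-05) and 0.01 in NCI-H358 (0.977). Beside this, ACTA2 changed by 1.59, -0.05 and 0.09 and TAGLN by 3.64, 4.21 and 3.76 in the same order. MKL1 rose by 1.35 in HCC827 and 0.60 in NCI-H358, and its value of 0.14 in A549 missed the threshold. MKL2 fell by 0.22 in NCI-H358, and SCAI, which represses the MKL factors, fell by 0.46 in HCC827.

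Among the other actins and transgelins, none was lower past the test, and the number higher was 3 of 7 in A549, also 3 in HCC827, and 2 in NCI-H358. TAGLN2, the transgelin of non-muscle cells, rose in every line by 0.71, 1.08 and 0.53, less than TAGLN. ACTC1, the heart actin, rose by 1.22 in A549 alone, with 0.19 and 0.22 in HCC827 and NCI-H358 short of the threshold. ACTG2, the other smooth muscle actin, rose by 0.72 in HCC827, with 0.36 in A549 and 0.22 in NCI-H358 short of it. The cytoplasmic actin ACTB rose by 0.32 in HCC827 and 0.17 in NCI-H358, and ACTG1 had values of 0.02, 0.08 and 0.01, none past the test.

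The paralogs of the calponins, tropomyosins and alpha-actinins moved in both directions. Of 6, 1 was higher in A549, 2 were higher and 3 lower in HCC827, and 2 were lower in NCI-H358. CNN2 had log2 levels of 7.84, 7.87 and 7.92 in parental and 8.38, 8.38 and 8.39 in mesenchymal A549 cells. In HCC827 these were 8.16, 8.27 and 8.53 against 7.91, 7.90 and 7.85, and in NCI-H358 they were 7.98, 8.04 and 8.07 against 7.34, 7.32 and 7.31. CNN2 thus rose by 0.50 in A549 and fell by 0.43 in HCC827 and by 0.71 in NCI-H358, while CNN3 rose in all of them. TPM3 fell by 0.71 in HCC827, where TPM4 rose by 0.83. ACTN4, the close relative of ACTN1, fell by 0.57 in HCC827 and by 0.24 in NCI-H358, where ACTN1 rose. The muscle form ACTN2 rose by 0.32 in HCC827, and ACTN3 did not pass the test in any line.

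Of 15 genes for myosin and its control, 2 were higher and 5 lower in A549, 6 higher and 3 lower in HCC827, and 6 higher and 4 lower in NCI-H358. MYH9, the non-muscle myosin heavy chain, rose in every line, by 0.64, 1.60 and 0.39, and the essential light chain MYL6 by 0.18, 0.29 and 0.24. MYLK, the kinase that phosphorylates the regulatory light chain, had log2 levels of 10.31, 10.31 and 10.28 in parental and 7.56, 7.43 and 7.39 in mesenchymal A549 cells. In that line it fell by 2.84 while MYL9, its substrate, rose by 1.49. In HCC827 MYLK changed by -0.07 (adjusted p = 0.449), and in NCI-H358 it rose by 0.56. PPP1R12A, the targeting subunit of myosin phosphatase, rose by 0.88 in HCC827 and 0.77 in NCI-H358, and its relative PPP1R12B fell by 0.39, 0.74 and 0.36. MYH14 fell by 0.54 in HCC827 and by 0.56 in NCI-H358.

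Of 15 genes of smooth muscle differentiation, 7 were higher and 2 lower in A549, 6 higher and 1 lower in HCC827, and 7 higher and 3 lower in NCI-H358. Those with the highest mean change were FHL1, a LIM protein of muscle, PDLIM7 and NEXN. FHL1 rose by 3.21 in HCC827 and 1.88 in NCI-H358 and fell by 0.29 in A549. PDLIM7 rose in every line, by 1.36, 2.34 and 0.62, and NEXN rose by 1.54 in HCC827 and 1.30 in NCI-H358. SYNPO2 fell by 0.98 in NCI-H358, and LMOD1 did not pass the test in any line.

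The focal adhesion list held the largest share of rising genes in A549. Of its 23 genes, 16 were higher and 4 lower in A549, 15 higher and 4 lower in HCC827, and 9 higher and 4 lower in NCI-H358, and 8 were higher in all 3 lines. TGFB1I1 (Hic-5), an adhesion protein named for its induction by TGFβ, was at 3.92, 3.67 and 4.09 in parental and 7.94, 8.20 and 7.90 in mesenchymal HCC827 cells, a rise of 4.12. In A549 it rose by 0.96 and in NCI-H358 by 1.51. TLN2, a talin, rose by 0.58, 2.23 and 2.16. The tensins went opposite ways in A549, where TNS1 rose by 3.82 and TNS3 fell by 2.94. LASP1 fell by 0.88 in A549 and by 1.17 in HCC827, and SORBS3 fell by 0.50, 0.40 and 0.65.

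**Figure D4:**
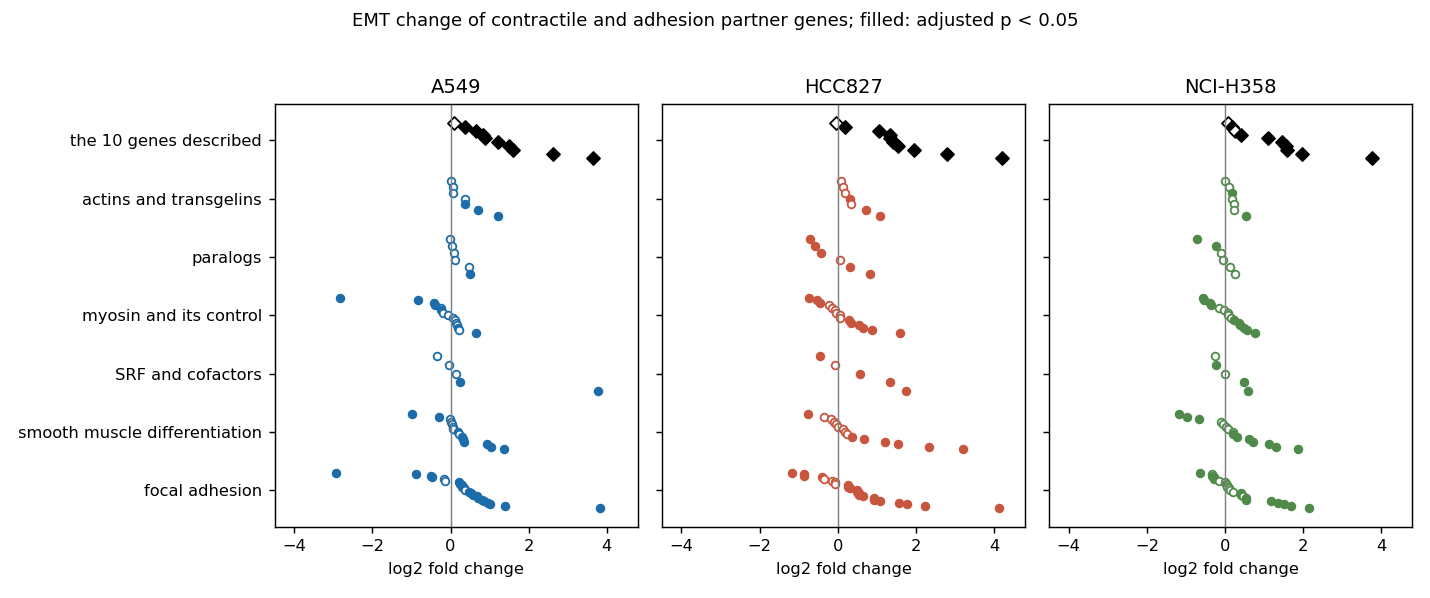
Log2 fold change of mesenchymal against parental cells for the 10 genes (black diamonds) and 71 partner genes in 6 lists (circles), by cell line; filled symbols had an adjusted p below 0.05. Most of the 10 genes lie to the right of 0, while the lists hold points on both sides, such as MYLK at -2.84 and MYOCD at 3.77 in A549.

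Marker lists were read beside these results. Of 8 epithelial markers, 5 were lower in mesenchymal A549 and all 8 in HCC827 and NCI-H358, and of 8 mesenchymal markers 6, 7 and 7 were higher, with ZEB2 lower in A549. Of 8 fibroblast markers 6 were higher in each line, and their mean log2 level rose from 4.83 to 5.01 in parental to 6.01 to 6.13 in mesenchymal A549 arrays, from 4.79 to 5.04 to 7.36 to 7.68 in HCC827, and from 5.39 to 5.54 to 6.82 to 6.91 in NCI-H358. Of 8 markers of differentiated smooth muscle, all of which are also among the 10 genes or the lists above, 3 were higher in A549 and 5 in HCC827, while 1 was higher and MYH11 lower in NCI-H358. DES and LMOD1 passed in no line, and MYH11, the smooth muscle myosin, changed by -0.24, 0.54 and -0.54 with group means of 4.22 to 5.84. Of 6 skeletal and heart muscle markers, 1 was higher in A549 (ACTC1) and 1 lower in HCC827 (TNNT2). Of 4 endothelial markers, 2 were higher in HCC827 and 1 in NCI-H358 (KDR), and of 4 leukocyte markers 1 was lower in A549 (CD14). The part of these marker changes in the results for the 10 genes was not tested.

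The genes whose log2 levels most resembled those of ACTA2, TAGLN and CNN1 over the 18 arrays were taken by Pearson's r, as a description. The arrays share lines and states, so a high r means that a gene has the same pattern over the 6 groups. For ACTA2 these were GREM1, SPATA18, HOXD10, RAB39B and RNF182 (r = 0.990 to 0.992). GREM1, a secreted BMP antagonist, changed by 3.30, 0.04 and 0.22 in the lines in the same order, and ACTA2 by 1.59, -0.05 and 0.09. For TAGLN they were CD59, NUAK1, CCDC80, NKAIN4 and NLK (r = 0.980 to 0.990), and the kinase NUAK1 changed by 2.56, 2.42 and 2.39. For CNN1 they included ROS1, BGN, LEFTY2 and COL10A1 (r = 0.960 to 0.974). COL10A1, a collagen, changed by 0.27, 5.56 and 0.07, and BGN, the proteoglycan biglycan, by 0.16, 3.78 and 0.73.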

How the data were processed

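The authors hybridized total RNA to Affymetrix U133 Plus 2.0 arrays, normalized the signal by RMA, which corrects background, equalizes the arrays and summarizes probes, and deposited log2 expression values, 1 probe set per gene for 19849 genes. How that probe set was chosen is not given in the sources used here. The 18 columns are named by the sample titles (0 were unmatched). The deposited log2 values of all 18 arrays entered a single model of 6 groups without covariates (limma 3.58.1, lmFit then eBayes, R 4.3.3), and p values were adjusted by Benjamini-Hochberg over all 19849 genes. Changes, differences of changes and differences of levels were contrasts of this fit, and single genes were also compared by exact permutation of 3 against 3 arrays. No arrays held identical values. Steps were tested on simulated data.

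The 10 genes, the 6 partner lists and the 7 marker lists were chosen with earlier results of these data known. From each partner list the genes with the highest and lowest mean change (up to 3 each) and all paralogs were named, and the 5 genes most like ACTA2, TAGLN and CNN1 were named by Pearson's r. Some items these rules name are not reported here. The rest were counted only, apart from ZEB2, TNNT2, KDR, CD14, DES and MYH11, named after their values were seen. Promoter windows came from the RefSeq table of GRCh38.p14. Alternatives were other call thresholds, a separate fit per line, an intensity trend or robust prior, a filter on dim genes, centring, repeated quantile normalization, array weights, the methods' t-test and arrays left out.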

Additional observations from a re-analysis of the deposited data

Results flagged for a closer look

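Each result here was picked out because the TGFβ change of 1 gene differed between 2 cell lines in a direct test (limma contrast, adjusted p below 0.05). Values are the log2 fold change in the first line minus that in the second, and no explanation was tested.

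For HCC827 minus A549 the difference was -1.64 for ACTA2 (adjusted p = 4.6e-08), 0.57 for TAGLN (0.0172), 1.25 for CNN1 (5.8e-06), 1.91 for TPM1 (4.0e-08), -1.23 for CALD1 (1.3e-05) and 0.88 for ACTN1 (1.2e-06). For NCI-H358 minus A549 it was -1.50 for ACTA2 (1.3e-07), 0.40 for CNN3 (0.0261), 0.75 for TPM2 (0.00733) and -1.17 for CALD1 (2.3e-05). For NCI-H358 minus HCC827 it was -1.10 for CNN1 (3.0e-05), -1.68 for TPM1 (2.7e-07) and -1.12 for ACTN1 (8.6e-08). ACTA2 and CALD1 thus appear in both pairs with A549, and CNN1, TPM1 and ACTN1 in both pairs with HCC827. The TAGLN call, though not the direction, rests on parental A549 replicate 2, without which the difference was 0.49 and missed the threshold (0.0501).

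MYOCD, the SRF cofactor, was tested for the same difference after its values were seen. The difference was -2.02 for HCC827 minus A549 (adjusted p = 1.7e-04), -3.76 for NCI-H358 minus A549 (1.9e-07) and -1.74 for NCI-H358 minus HCC827 (7.8e-04), so all 3 pairs of lines differed. The MYOCD means in parental HCC827 and both NCI-H358 groups were low, at 3.71 to 3.86. ACTA2 differed in the pairs that hold A549 only, and its change in NCI-H358 minus that in HCC827 was 0.13 (adjusted p = 0.506).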

How the results depend on the processing

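Over the alternatives, 824 of 867 recomputed log2 fold changes of the 10 genes kept their direction and side of the threshold, 35 lost the call, 4 gained it and 4 changed sign. For differences between lines these were 737 of 807, with 22, 32 and 16. Some alternatives changed only the test or the threshold, or left out an array outside the comparison. There the value stayed the same by construction, and only the call could move. All changes of sign were of values short of the threshold. The ACTA2 change in HCC827 became 0.029 with array weights, 0.0189 with centring and 0.0191 with repeated quantile normalization. The CALD1 difference between NCI-H358 and HCC827 became -0.0050 without the parental arrays whose title numbers stand apart and -0.085 with array weights, and ranged from -0.078 to 0.146 with 1 array left out. Left-out ranges that also crossed 0 were -0.0034 to 0.191 for CNN1 in A549, -0.127 to 0.119 for MYL9 and -0.0381 to 0.0493 for VCL between NCI-H358 and HCC827, and -0.0274 to 0.279 for TAGLN between NCI-H358 and A549.

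Thresholds moved the counts most. With a fold above 2, the genes called were 4 in all 3 lines, 5 in A549, 2 for the change in NCI-H358 against A549, 2 for the mesenchymal and 1 for the parental level in NCI-H358 against HCC827, 5 for the parental level in HCC827 and 4 in NCI-H358 against A549, and 9, 14 and 9 partner genes in A549, HCC827 and NCI-H358. With the study's cutoffs they were 1 in all 3 lines, 2, 2 and 1 in A549, HCC827 and NCI-H358, 0 for each difference of changes, 2 and 4 for the mesenchymal and 3 and 3 for the parental level in HCC827 and NCI-H358 against A549, 0 for both levels in NCI-H358 against HCC827, and 4, 3 and 0 partner genes. These counts of 0 follow from the cutoffs, while 6, 4 and 3 differences of changes passed at an adjusted p below 0.05 (limma). The intensity trend gave 7 differences of change in NCI-H358 against A549 and 5 against HCC827, array weights 5 against HCC827, and the methods' t-test 2 parental levels in NCI-H358 against HCC827. The cause was not tested. With 1 array left out the genes called ranged from 9 to 9 in A549 and HCC827 and from 7 to 9 in NCI-H358, and the differences of change from 5 to 7, 3 to 6 and 3 to 4.

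Some differences short of the threshold passed with other processing. With an intensity trend this held for VCL in HCC827 (adjusted p = 0.0349) and NCI-H358 (0.0341) against A549. For MYL9 in NCI-H358 against A549 it held with that trend (0.0433) or dim genes left out (0.0335). For MYL9 in HCC827 against A549 it held with dim genes left out (0.0432). Differences short of the threshold also passed without single arrays. For MYL9 in NCI-H358 against A549 this held without mesenchymal A549 replicate 3 (adjusted p = 0.0168), parental A549 replicate 1 (0.0437), parental HCC827 replicate 1 (0.0499), mesenchymal NCI-H358 replicate 2 (0.0305), or parental NCI-H358 replicates 1 (0.0452) or 2 (0.0299). For MYL9 in HCC827 against A549 it held without mesenchymal A549 replicate 3 (0.0218) or parental NCI-H358 replicate 3 (0.0362), and for ACTN1 in NCI-H358 against A549 without parental A549 replicate 3 (0.0384) or parental HCC827 replicate 1 (0.0170). For TAGLN in NCI-H358 against HCC827 it held without parental NCI-H358 replicate 3 (0.00768), for CNN3 without parental HCC827 replicate 1 (0.0131), and for TPM2 without mesenchymal HCC827 replicate 1 (0.0333) or parental HCC827 replicate 3 (0.00748). In this pair TAGLN also passed with array weights (0.0300), centring (0.0488), an intensity trend (0.0390) or dim genes left out (0.0391). CNN3 also passed there with array weights (0.0261), and TPM2 with an intensity trend (0.0286) or dim genes left out (0.0373).

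No paired analysis was possible because the labels give the arrays no replicate number that groups share. The 3 arrays per group, and 1 probe set per gene, limit what can be seen.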
